A study of Mus musculus with 39 samples.

Results

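The genes described here were the very long protein-coding genes of the mouse, those that span at least 500 kb from the start to the end of the gene record on chromosomes 1 to 19. Genes with symbols starting with Cdh, Pcdh, Kcn, Fox or Sox were left out, which removed 13 genes of this size. Of the genes kept, 4 overlap a gene of these families. The remaining 205 genes, of 20807 protein-coding genes on these chromosomes, had a median span of 731 kb and a summed span of 177 Mb, and 51 of them spanned 1 Mb or more. The rule uses length and symbol and none of the domain calls below.

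Both domain lists came from R1 mouse embryonic stem (ES) cells, wild type and kept in medium with serum and leukemia inhibitory factor. Nucleosome wrapping domains (NRDs) were called from H3-wrapping-seq, for which the series has 4 libraries under 2 replicate numbers, and in which crosslinked chromatin was digested with MNase, a nuclease that trims DNA not covered by a nucleosome, and recovered with an antibody against histone H3. For replication timing (RT) domains the series has 8 libraries, also under 2 replicate numbers, of BrdU-labelled DNA from sorted fractions of S phase. How replicates were combined into each list is not given in the sources used here. Only the 2 domain lists were used, which hold no value per replicate and no read numbers per domain; values of single replicates were not analysed here, so no spread between replicates and no p-value is given. The lists hold no expression values, so the identity of the cells was not checked against marker genes.

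In a TiNRD (tight NRD) the wrapping index is positive, which means that longer nucleosomal fragments were more frequent than in the average bin, and in a LoNRD (loose NRD) it is negative. The index is a z-score without a unit. An early RT domain has a positive log2 ratio of early over late S phase fractions, and a late domain has a negative one. The borders lie on a grid of 100 kb for NRDs and of 50 kb for RT domains, so a gene under these sizes is rarely cut by a border while a very long gene can lie across several domains.

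Very long genes owe their size to introns, and many of them encode adhesion molecules, receptors and scaffolds of neurons, which ES cells use little. RNA polymerase needs many hours to cross such a gene, and in cells that transcribe them several are known as common fragile sites, places where chromosomes break when replication is slowed. Replication timing is set over large domains, with gene-rich and active chromatin replicated early and gene-poor chromatin late.

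Very long genes lay mostly in loosely wrapped, late replicating chromatin. Of their summed length, 66.2% was in LoNRDs, 33.3% in TiNRDs and 0.517% in neither, and 78.5% was in late domains, 18.5% in early domains and 3.05% in neither. Over the gene bodies of all protein-coding genes, 32.2% was in LoNRDs and 36.6% in late domains, and over the called length of chromosomes 1 to 19 the shares were 47.1% and 52.6%. At least 50% of the body was in LoNRDs for 140 of the 205 genes (68.3%), against 20.3% of all protein-coding genes. At least 50% was in late domains for 175 genes (85.4%), against 21.4% of all protein-coding genes. The very long genes, with overlaps counted once, took up 10.4% of all LoNRD length and 4.53% of all TiNRD length, and 11.1% of late but 2.83% of early length.

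**Figure D1:**
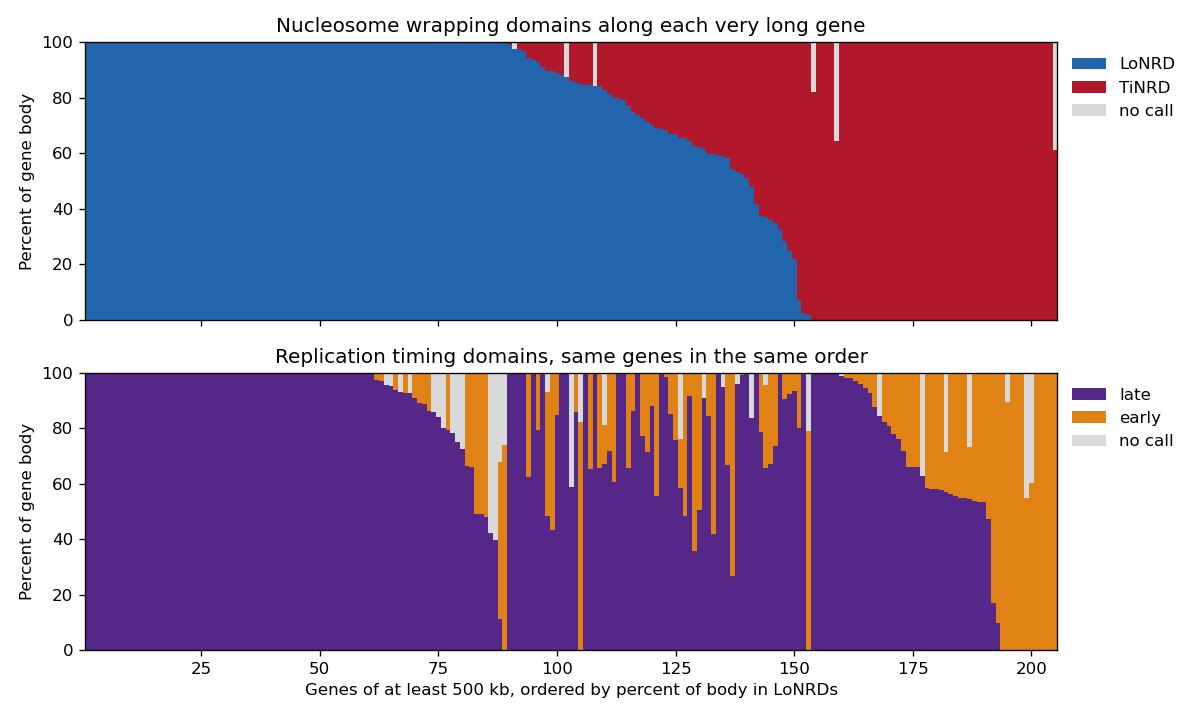
Each column is 1 of the 205 genes of at least 500 kb, ordered by the percent of its body in LoNRDs, with the percent in LoNRDs, TiNRDs or without a call above and in late domains, early domains or without a call below. Whole columns of a single wrapping kind stand at both sides, 89 in LoNRDs and 49 in TiNRDs, and late domains fill most of the lower panel under both.

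The whole body lay in LoNRDs for 89 genes (43.4%, against 19.2% of all protein-coding genes) and in TiNRDs for 49 (23.9%, against 77.7%). At least 95% of it lay in LoNRDs for 93 genes (45.4%, against 19.2%) and in TiNRDs for 51 (24.9%, against 77.8%). For replication timing 98 genes had at least 95% of the body in late domains (47.8%, against 19.9% of all protein-coding genes), and 9 had as much in early domains (4.39%, against 74.2%). Where the lists parted, 49 genes had at least 50% of the body in TiNRDs and at least 50% in late domains (23.9%, against 7.52% of all protein-coding genes), and 11 had at least 50% in LoNRDs and at least 50% in early domains (5.37%, against 5.33%). With at least 95% in place of 50%, tight and late genes were 10 (4.88%, against 6.44% of all protein-coding genes) and loose and early genes 0 (against 4.65%). Over the length called in both lists, 62.7% was loose and late, 18.2% tight and late, 15.3% tight and early and 3.75% loose and early, so that the corresponding kinds made up 78.0%, compared with 81.8% over all protein-coding genes.

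The shares changed with gene length. From genes under 10 kb through 10 to 50, 50 to 100, 100 to 200 and 200 to 500 kb, the LoNRD share of the summed body was 23.5%, 14.6%, 18.3%, 23.2% and 39.7%. The late share over the same classes was 25.9%, 13.9%, 16.6%, 25.9% and 49.0%. Within the very long genes the LoNRD share went on rising. It was 56.9% for the 66 genes of 500 to 600 kb and 59.7% for the 52 of 600 to 800 kb. For the 36 of 800 to 1000 kb it was 66.3%, and for the 51 of 1000 kb or more 74.0%. The late shares of these 4 sizes were 73.9%, 72.5%, 80.2% and 83.0%, which is not a steady rise. Just inside the size limit were Car10, a carbonic anhydrase-related protein (503.7 kb), Dock1, an activator of Rac (503 kb), and Edil3, an integrin ligand (501.8 kb), and just outside were Pde1c (499.3 kb), Dnm3 (495.6 kb) and Cacna1e (493.8 kb). The LoNRD shares of the first set were 79.8%, 0% and 100%, and those of the second 100%, 64.1% and 0%, so genes on both sides of the limit were of either kind.

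**Figure D2:**
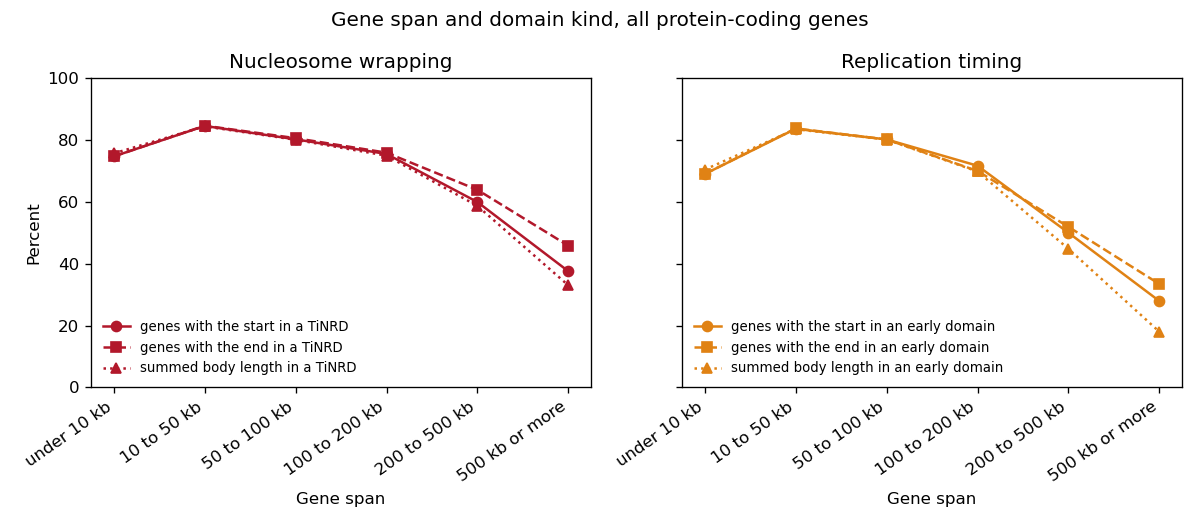
Percent of genes with the start or the end in a TiNRD (left) or an early domain (right), and percent of the summed body length there, for protein-coding genes grouped by span; the last class holds all 218 genes of at least 500 kb, those left out by symbol included. The values lie together in the short classes and separate in the last, where the start is at 37.6% and the end at 45.9% in TiNRDs.

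The size of some genes depended on the annotation. The gene records were those of GENCODE, and 201 of the 205 genes had a RefSeq record, which spanned at least 500 kb for 193 and less for 8. The longest record, Gm20388 on chromosome 8 (4435 kb), holds 71 other protein-coding genes and has no RefSeq record. Fgfr2, a fibroblast growth factor receptor, is the next longest with 2961 kb and holds 29 protein-coding genes, while its RefSeq record spans 104 kb. Gm42416 and Gm37388 on chromosome 18 (887 and 857 kb) likewise hold 36 and 31 protein-coding genes. These records had 0% of the body in LoNRDs. Gm42416 and Gm37388 overlap each other, and with overlaps counted once chromosome 18 held 2 loci in place of 4 genes. A border inside both is counted for each of them below. With the 193 genes that keep their size in RefSeq, 71.7% of the body was in LoNRDs and 82.3% in late domains.

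The longest genes that keep their size in RefSeq come first. Ptprd, a receptor-type tyrosine phosphatase of synapses (2271 kb, chromosome 4), had 100% of its body in a LoNRD with an index of -0.915 and 95.6% in late domains. Cntnap2, a member of the neurexin family (2245 kb, chromosome 6), was 100% in a LoNRD and 90.9% late. Lsamp, a membrane protein of the IgLON family (2197 kb, chromosome 16), and Lrp1b, a member of the LDL receptor family (2058 kb, chromosome 2), were 100% in LoNRDs and 100% late, with indices of -1.10 and -1.04. All 4 are thus loose from end to end.

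Macrod2, an enzyme that removes ADP-ribose from proteins (1998 kb, chromosome 2), and Nrxn3, a presynaptic adhesion molecule (1612 kb, chromosome 12), were also 100% in LoNRDs and 100% late. Dlg2, a scaffold of the postsynaptic density (1973 kb, chromosome 7), was 100% in a LoNRD and 86.1% late. The start of its GENCODE record was in an early domain of 0.80 (log2), which turned late 273 kb into the gene. The RefSeq promoter of Dlg2 lay 614114 bases from that start, past the switch. Csmd1, a large membrane protein with complement control repeats (1643 kb, chromosome 8), was 87.4% in a LoNRD and 100% late, and its end had no NRD call.

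Start and end were compared next, with no test of the difference. The start is that of the GENCODE record, which need not be the promoter in use. Of the 157 genes with a RefSeq promoter, 128 had it within 1000 bases of that start. The start lay in a TiNRD for 77 genes (37.6%) and the end for 95 (46.3%), where for all protein-coding genes the shares were 78.7% and 79.0%. The start was in an early domain for 58 genes (28.3%) and the end for 71 (34.6%), against 75.6% for the starts and 75.6% for the ends of all protein-coding genes. Start and end were of opposite wrapping kinds in 54 genes (26.3%, against 1.70% of all protein-coding genes). In 36 of these the start was loose and the end tight, and in 18 the start was tight and the end loose. For replication timing 63 genes had opposite kinds (30.7%, against 2.08%), 39 with a late start and an early end and 24 the other way round. In both lists together, 18 genes went from loose and late to tight and early, and 7 from tight and early to loose and late (8.78% and 3.41%). Over all protein-coding genes these counts were 43 and 30 (0.207% and 0.144%). The 66 genes of 500 to 600 kb went against the whole set for replication timing, with 25 starts (37.9%) and 22 ends (33.3%) in early domains and the late start in 13 of 27 genes with opposite kinds (48.1%). The late start was found in 10 of 12 such genes of 600 to 800 kb, 6 of 10 of 800 to 1000 kb and 10 of 14 of 1000 kb or more.

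Shorter genes were compared in the same way, with no test of the difference. Over all protein-coding genes, which include the very long ones, 207 had a loose start and a tight end and 146 the reverse, and for replication timing 216 went each way. Among genes of 200 to 500 kb, 59 of the 94 with opposite wrapping kinds (62.8%) had the loose start, a share close to the 66.7% of the very long genes. For replication timing 66 of 130 (50.8%) had the late start, against 61.9%. Genes of either strand showed the same direction, with 24 of 35 on the plus and 12 of 19 on the minus strand for wrapping, and 22 of 34 and 17 of 29 for replication timing. Where start and end were of the same kind, the deposited wrapping index was higher at the end in 6 genes and at the start in 4, and the RT value was higher at the end in 15 and at the start in 14. Most genes had no such difference, since the value was the same at both in 138 of 202 genes for wrapping and in 94 of 186 for RT. A start or an end close to a border could be placed in the wrong kind by 1 bin, and 24 of 204 starts and 19 of 203 ends lay within 100 kb of an NRD border.

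**Figure D3:**
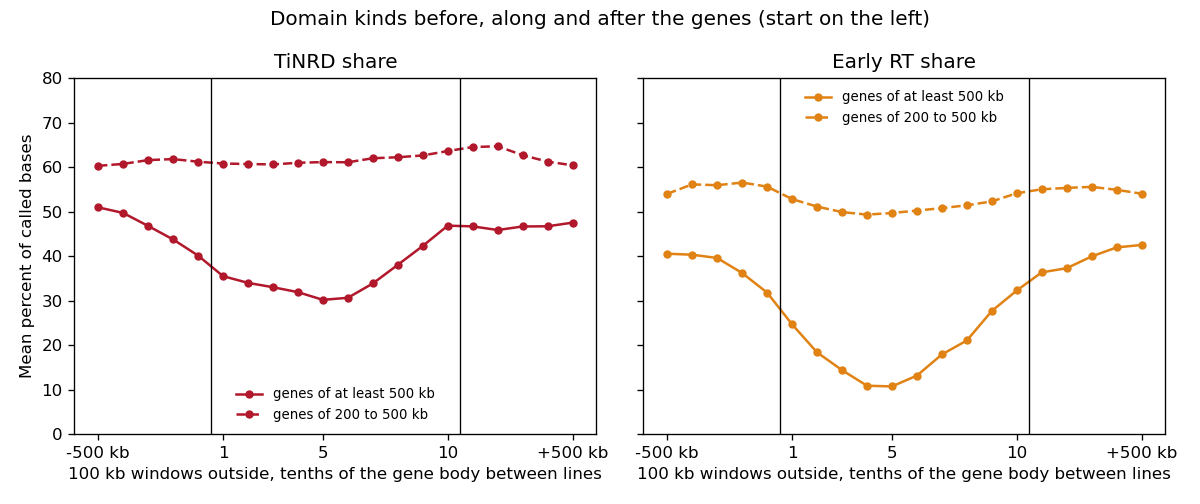
Mean percent of called bases in TiNRDs (left) and early domains (right) in 100 kb windows before the start and after the end, and in 10 equal parts of the gene body between the black lines. For genes of at least 500 kb the TiNRD share goes from 35.5% in part 1 to 30.2% in part 5 and 46.9% in part 10, while that of genes of 200 to 500 kb lies higher throughout.

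Along the gene, both measures were lowest in the middle. With every gene cut into 10 equal parts, the mean TiNRD share was 35.5% in part 1, 30.2% in part 5 and 46.9% in part 10, and the mean early share was 24.7%, 10.7% and 32.3%. Outside the genes the TiNRD share was 51.0% in the window at 500 kb before the start and 47.6% at 500 kb after the end. The early shares there were 40.6% and 42.5%. The A/T content of the same parts was 59.2% in part 1, 59.9% in part 5 and 58.6% in part 10, and its part in the difference was not tested.

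The neighbours of the genes differed with the kind of the end. Over all 205 genes, a mean of 2.72 protein-coding genes started within 500 kb before the start and 2.63 within 500 kb after the end. Of the 205 genes, 87 had more gene starts after the end and 80 had more before the start. For the 36 genes with a loose start and a tight end the means were 1.47 and 4.67, and 28 of them had more gene starts after the end. For the 18 with a tight start and a loose end the means were 5.22 and 0.5, and 17 had more before the start.

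Changes of kind inside a gene, here called switches, were found in 61 genes for wrapping (29.8%) and in 85 for replication timing (41.5%), with overlapping genes each counted. Over all protein-coding genes 1.76% held an NRD switch and 2.20% an RT switch. Per 10 Mb of body the very long genes held 3.95 NRD switches and 5.76 RT switches, and the chromosomes as a whole 3.91 and 5.19 per 10 Mb of called length. Longer genes of the set did not hold switches more often: from 500 to 600 kb through 600 to 800 and 800 to 1000 kb to 1000 kb or more, 39.4%, 17.3%, 30.6% and 29.4% held an NRD switch and 47.0%, 42.3%, 38.9% and 35.3% an RT switch. A switch of both lists was found in 39 of the 205 genes, against 0.452% of all protein-coding genes, and of neither in 98 (47.8%, against 96.5%). Wrapping alone switched in 22 (10.7%, against 1.31%) and replication timing alone in 46 (22.4%, against 1.75%).

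The direction of a switch went with its place. The 26 switches from TiNRD to LoNRD had a median position at 34.5% of the gene, and 19 lay in the first 50% of the gene. The 44 from LoNRD to TiNRD had a median at 74.4%, and 39 lay in the last 50%. Of the 44 switches from early to late, 37 lay in the first 50%, with a median at 14.3%, and of the 58 from late to early 52 lay in the last 50%, with a median at 78.2%. Of the 70 NRD switches 39 had an RT switch of the same direction in the same gene, at a median distance of 100 kb, and 28 of them were within 200 kb.

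**Figure D4:**
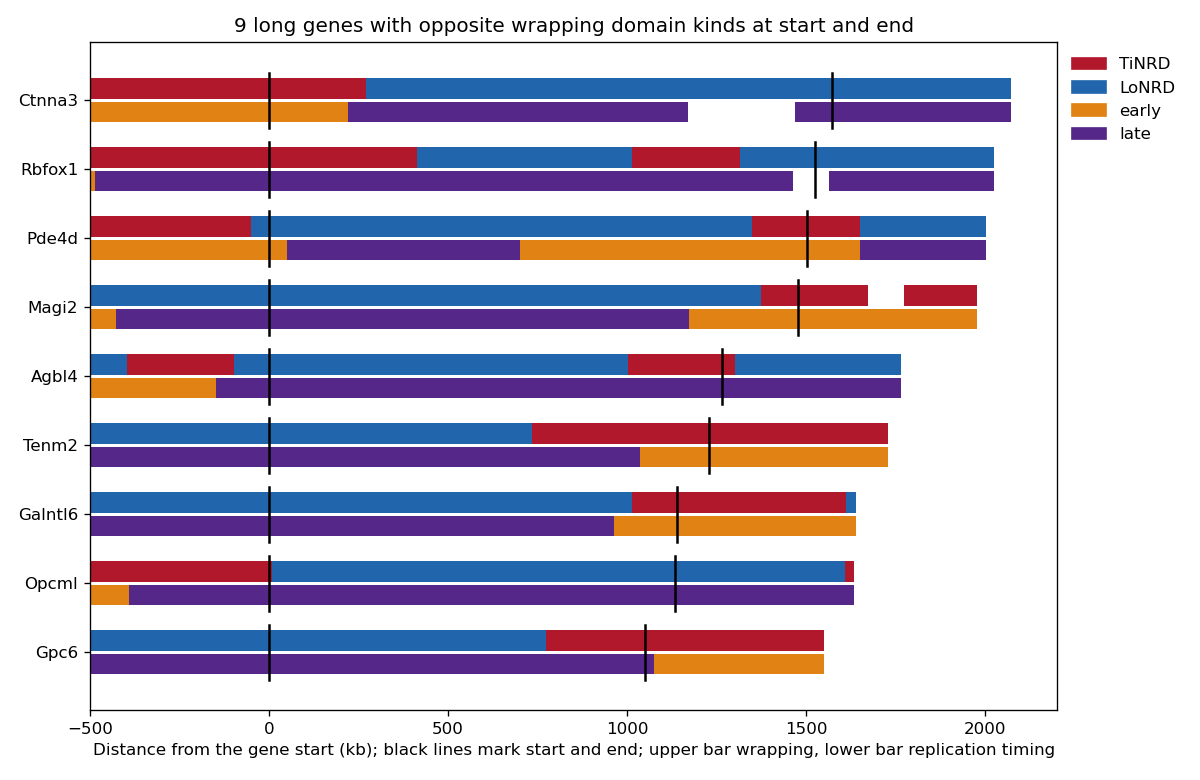
Domains along 9 of the 10 longest genes with opposite wrapping kinds at start and end, by distance from the gene start in kb, with the wrapping list above, the RT list below, and black lines at start and end; white gaps have no call. The loose and late stretches cover the body of most of the genes, and the tight part lies at the end in 6 of the 9.

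Ctnna3, an alpha-catenin of cell junctions (1574 kb, chromosome 10), was the longest gene with opposite wrapping kinds at start and end. Its start lay in a TiNRD with an index of 0.997 and an early domain of 1.34 (log2), and its end in a LoNRD of -1.02 and a late domain of -1.07. The NRD switch lay 269.9 kb and the RT switch 219.9 kb from the start. Lrmda, a gene of melanocyte differentiation (1036 kb, chromosome 14), had the same order of kinds, but its RT switch lay 80.3 kb and its NRD switch 780.3 kb from the start. The order of kinds was thus shared while the distance between the switches was not.

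The promoters of these 2 genes are shown beside those of Lsamp and Macrod2, the longest genes of the RefSeq promoter table that were at least 95% loose and late, because the kind of the start is what differs between the pairs. The sequences are those of RefSeq for GRCm38.p6, plus strand, 300 bases each, at chr10:63429848-63430147 for Ctnna3, chr14:22019462-22019761 for Lrmda, chr16:39984114-39984413 for Lsamp and chr2:140395180-140395479 for Macrod2, written in lower case with each CG dinucleotide in capitals.
Ctnna3: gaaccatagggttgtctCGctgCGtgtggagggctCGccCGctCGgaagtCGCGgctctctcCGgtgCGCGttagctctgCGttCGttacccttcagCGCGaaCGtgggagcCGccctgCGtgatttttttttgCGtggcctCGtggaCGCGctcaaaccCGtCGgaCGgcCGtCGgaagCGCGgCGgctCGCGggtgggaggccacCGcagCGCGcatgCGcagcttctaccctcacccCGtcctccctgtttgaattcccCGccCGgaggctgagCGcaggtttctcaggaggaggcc
Lrmda: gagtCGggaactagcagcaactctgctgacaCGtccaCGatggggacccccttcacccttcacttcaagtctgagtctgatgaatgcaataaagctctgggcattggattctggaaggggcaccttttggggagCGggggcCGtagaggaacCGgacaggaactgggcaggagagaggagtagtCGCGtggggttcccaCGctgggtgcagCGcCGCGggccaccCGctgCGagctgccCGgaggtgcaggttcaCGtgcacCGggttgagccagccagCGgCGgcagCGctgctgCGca
Lsamp: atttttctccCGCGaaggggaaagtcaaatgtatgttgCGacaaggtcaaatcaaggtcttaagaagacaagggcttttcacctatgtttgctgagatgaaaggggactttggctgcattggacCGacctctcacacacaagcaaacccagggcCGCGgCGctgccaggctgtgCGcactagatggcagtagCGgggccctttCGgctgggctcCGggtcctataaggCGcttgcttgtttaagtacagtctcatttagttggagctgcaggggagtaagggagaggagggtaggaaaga
Macrod2: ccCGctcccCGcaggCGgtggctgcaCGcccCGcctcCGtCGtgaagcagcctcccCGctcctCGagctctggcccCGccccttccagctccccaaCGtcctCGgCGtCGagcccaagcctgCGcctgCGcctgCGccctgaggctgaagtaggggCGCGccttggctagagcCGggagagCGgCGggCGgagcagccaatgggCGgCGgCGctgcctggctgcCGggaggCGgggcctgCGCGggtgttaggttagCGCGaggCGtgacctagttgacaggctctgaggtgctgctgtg
They hold 39, 21, 12 and 33 CG, so Macrod2, with a loose and late start, had more than Lrmda, with a tight and early start. The dinucleotide CG reads the same on both strands. Of the 205 genes 157 were in the promoter table, 128 of them within 1000 bases of the GENCODE start, with medians of 16 CG per promoter for the 157 and 20 for the 128. The median of all 32851 promoters of the table, at any distance from a GENCODE start, was 7. At least 10 CG were held by 43.5% of all promoters, 71.3% of the 157 and 79.7% of the 128. Promoters in TiNRDs had a median of 22.5 CG (48 genes) and those in LoNRDs 17 (80 genes), with ranges of 2 to 54 and 0 to 54 that overlapped, and 79.2% and 80.0% held at least 10. By replication timing the medians were 25 for early starts (35 genes) and 17 for late starts (88 genes), with ranges of 3 to 46 and 0 to 54, and 91.4% and 75.0% held at least 10.

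Among the other genes with opposite wrapping kinds, the loose start and tight end was seen in Magi2, a synaptic scaffold (1478 kb, chromosome 5), with an index of -0.767 at the start and 0.186 at the end and an NRD switch at 1373 kb. Its RT changed from -0.43 to 0.87 (log2), with the switch at 1173 kb. Tenm2, a teneurin adhesion molecule (1229 kb, chromosome 11), went from -1.18 to 0.773 in wrapping index and from -1.03 to 0.91 in RT (log2), with switches at 736 and 1036 kb. Both changed in the same direction in both lists, with the NRD and RT switches 200 kb or more apart.

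Galntl6, related to enzymes that start O-glycans (1139 kb, chromosome 8), had its switches close together, at 1013 kb for wrapping and 962.6 kb for RT. Agbl4, an enzyme that trims glutamates from tubulin (1267 kb, chromosome 4), and Gpc6, a glypican (1051 kb, chromosome 14), changed from loose to tight at 1002 and 774.7 kb while both were 100% late. Pde4d, a cyclic AMP phosphodiesterase (1504 kb, chromosome 13), had an index of -0.452 at the start and only 0.0533 at the end, and was early at both. Its RefSeq promoter lay 204229 bases from the GENCODE start, in a late stretch from 50.1 to 700.1 kb. Opcml, an IgLON protein (1135 kb, chromosome 9), started in a TiNRD that ended 9.23 kb into the gene, which is under the grid of the list. Rbfox1, a splicing regulator (1526 kb, chromosome 16), held 3 NRD switches and no RT switch, and was 96.0% late.

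Opposite RT kinds without a change of wrapping were seen in Cntnap2, whose late start of -0.84 and early end of 0.73 (log2) were parted by a switch at 2041 kb and in Dlg2. Both were 100% in LoNRDs. Ptprt, a receptor-type tyrosine phosphatase (1139 kb, chromosome 2), started in an early domain that ended 11.1 kb into the gene. Auts2, a nuclear protein linked to Polycomb complexes (1106 kb, chromosome 5), turned early at 743.3 kb. Both had TiNRDs at start and end with a LoNRD between.

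At least 95% tight and at least 95% early were 8 genes (3.90%, against 68.3% of all protein-coding genes). Beside Gm20388 they included Tenm4, a teneurin (739.8 kb, chromosome 7), with an index of 0.630 and RT of 1.08 (log2), Nav2, a neuron navigator protein (701.4 kb, chromosome 7), with 0.906 and 0.83 (log2), and Ptprg, a receptor-type tyrosine phosphatase (688.5 kb, chromosome 14), with 0.306 and 0.74 (log2). Magi1, a junctional scaffold (608.5 kb, chromosome 6), had 0.358 and 0.40 (log2), and Slit3, a secreted axon guidance ligand (587.3 kb, chromosome 11), had 0.773 and 0.91 (log2). Families thus held genes of both kinds, since Tenm2 started loose and late and Ptprd was loose and mostly late.

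Tight but late genes formed the larger of the groups where the lists disagreed. Dab1, an adaptor of reelin signalling (1125 kb, chromosome 4), was 82.2% in TiNRDs, with the rest without an NRD call, and 100% late, with an index of 0.229 at the start and 0.398 at the end and RT of -0.75 (log2). Asic2, an acid-sensing ion channel (1088 kb, chromosome 11), was 100% in a TiNRD of 0.814 and 98.2% late. Rbms3, an RNA-binding protein (1057 kb, chromosome 9), was 100% in a TiNRD of 0.892 and 100% late at -0.95 (log2). Gm37240, a predicted gene whose size may depend on the annotation (1391 kb, chromosome 3), was 100% tight and 57.5% late. Among the 11 loose but early genes, Immp2l, a mitochondrial inner membrane peptidase (931.5 kb, chromosome 12), was 100% in a LoNRD of -0.862, 56.5% early and 11.3% late, with the rest without an RT call, Rabgap1l (574 kb, chromosome 1) was 100% loose and 73.9% early with the rest without an RT call, and Pde4d was 89.8% loose and 43.2% late.

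A/T content, which the choice of genes did not use, went with the kind of wrapping. The median was 59.9% in the very long genes and 54.6% in all protein-coding genes. Over the whole sequence of chromosomes 1 to 19 the A/T content was 58.1%. The 93 genes with at least 95% in LoNRDs had a median of 61.8%, and the lowest of them had 59.0%. The 51 with at least 95% in TiNRDs had a median of 55.9%, and the highest of them had 58.7%. The ranges of the 2 sets did not overlap. All LoNRDs of at least 500 kb had a median of 60.5% and all such TiNRDs 56.5%, so the direction of the split is not particular to these genes. The 10 genes with at least 95% in TiNRDs and in late domains had a median of 56.3%, near that of the tight genes as a whole. MNase is known to prefer A/T, and its part in these calls was not tested. Exons made up a median of 1.20% of a very long gene and 20.5% of all protein-coding genes.

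**Figure D5:**
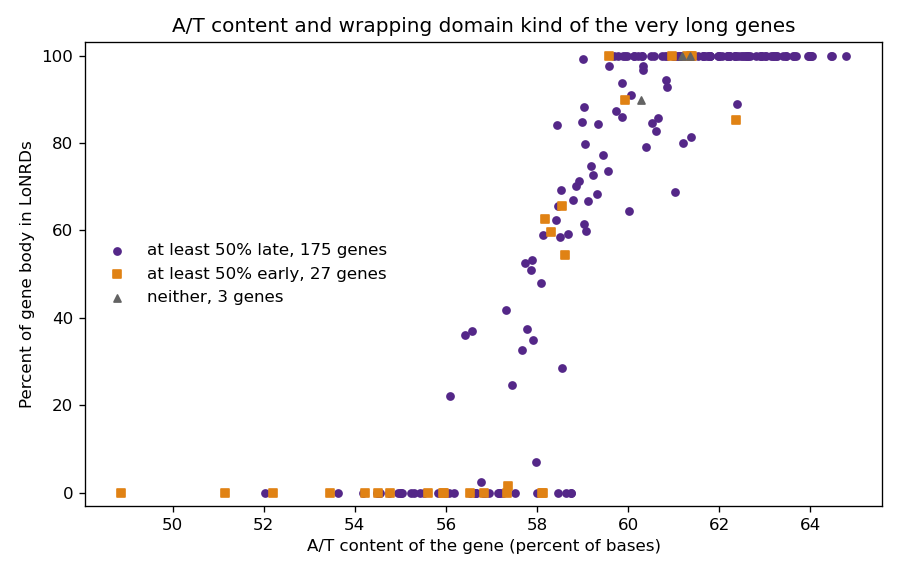
Percent of the gene body in LoNRDs against A/T content for the 205 genes, with symbols for at least 50% of the body in late domains, at least 50% in early domains, or neither. Genes with 0% in LoNRDs lie at or under 58.7% A/T and those with 100% above 59.0%, and the 27 mostly early genes lie in both.

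Domains that held a whole very long gene were set beside all domains of at least 500 kb. The 89 genes in a single LoNRD lay in 76 LoNRDs with a median length of 4.7 Mb and a median index of -0.867, while all LoNRDs of at least 500 kb had medians of 1.6 Mb and -0.545. The 49 genes in a single TiNRD lay in 43 TiNRDs, with medians of 5.7 Mb and 0.683 against 1.6 Mb and 0.529. A longer domain can hold a whole long gene more readily, so nothing is read from these lengths or from the indices of domains chosen in this way. The LoNRD at chr16:59600001-76200000 (mm10) held 4 of them whole, the axon guidance receptors Epha6, Robo1 and Robo2 and the adhesion molecule Cadm2. By chromosome, with overlapping genes counted once, the LoNRD share of the bodies ranged from 45.2% on chromosome 9, where it was 35.7% over the whole chromosome, to 89.8% on chromosome 6, where it was 53.5%. With every gene counted, the lowest share was 29.6% on chromosome 18, with 4 genes, where overlaps counted once gave 55.3% and the whole chromosome 48.9%.

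By function, 134 of the 205 genes were in at least 1 of 9 lists, and a gene could be in several. No list was tested against the others, and the lists differ in gene size, which the domain shares also went with. The 38 genes of synapse and neural cell adhesion, with a median span of 971 kb where the 205 genes had 731 kb, had 83.7% of the body in LoNRDs and 93.2% in late domains, beside 66.2% and 78.5% over the whole set. Of these, 26 had at least 95% of the body in LoNRDs (68.4%, against 45.4% of the 205 and 19.2% of all protein-coding genes). Starts in a TiNRD were found for 9 (23.7%, against 37.6% of the 205 and 78.7% of all protein-coding genes) and in an early domain for 3 (7.89%, against 28.3% and 75.6%). The 7 genes of axon guidance had 87.0% in LoNRDs and 75.6% in late domains. Dcc, the netrin receptor (1097 kb, chromosome 18), was 100% loose and late with an index of -1.10, Epha6 was 100% loose and 79.4% late, and Robo1, a receptor of Slit proteins, was 100% loose, with 39.5% late and the rest without an RT call.

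The 19 genes listed under neurotransmitter receptors and ion channels, which also include Rims1, Syt1, Fgf12 and Fgf14, had 67.8% in LoNRDs and 80.7% late. The 26 scaffold and signalling proteins had 69.7% and 72.1%. Both lists were also of mixed kinds. Grm7, a metabotropic glutamate receptor (921.6 kb, chromosome 6), was 100% loose, and Asic2 was 0% loose, so the receptors were of either kind. The 6 receptor-type tyrosine phosphatases had 55.6% in LoNRDs and 76.2% in late domains, and 4 of them started in a TiNRD and 4 in an early domain (66.7% each, against 37.6% and 28.3% of the 205 and 78.7% and 75.6% of all protein-coding genes). Ptprn2, a phosphatase-like protein of secretory granules (791.1 kb, chromosome 12), was 0% loose and 56.9% late, with 28.7% without an RT call.

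The 11 transcription and chromatin regulators had the lowest LoNRD share of the lists, 39.3%, with 62.8% in late domains. Of them, 7 started and 7 ended in a TiNRD (63.6% each, against 37.6% and 46.3% of the 205 and 78.7% and 79.0% of all protein-coding genes). Zfhx3, a homeobox transcription factor (1019 kb, chromosome 8), was 0% loose and 54.7% late, and Camta1, a calmodulin-binding transcription activator (944.6 kb, chromosome 4), was 0% loose and 89.4% early, with the rest without an RT call. The 3 RNA-binding and splicing regulators, Rbfox1, Rbms3 and Celf2, had 48.4% in LoNRDs and 98.3% in late domains, and Celf2 (969.9 kb, chromosome 2) was 93.8% loose.

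The 29 mouse counterparts of genes at human common fragile sites had 78.4% of the body in LoNRDs and 84.1% in late domains. Their median span was 1223 kb, and the 51 genes of 1000 kb or more had 74.0% and 83.0%. Of the 29, 9 started in a TiNRD and 13 ended in one (31.0% and 44.8%, against 37.6% and 46.3% of the 205), and 6 started and 12 ended in an early domain (20.7% and 41.4%, against 28.3% and 34.6%). Over all protein-coding genes the shares were 78.7%, 79.0%, 75.6% and 75.6%. The 23 genes of general cell functions (trafficking, DNA repair, ubiquitin, metabolism) had 75.1% in LoNRDs and 76.7% late, and 6 of them started and 15 ended in a TiNRD (26.1% and 65.2%, against 37.6% and 46.3% of the 205). Fhit, a hydrolase of diadenosine triphosphate (1612 kb, chromosome 14), and Gpc5, a glypican (1433 kb, chromosome 14), were 100% loose and 100% late, with indices of -0.435 and -1.01.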

How the data were processed

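Adaptors were trimmed by the authors with cutadapt 4.3 and reads aligned with Bowtie2 2.5.1 to mm10; bedtools 2.30.0 counted fragments. Each NRD carries a score, the wrapping index, as deposited, from runs of smoothed bins found with FindHiCCompartments. The value of an RT domain is a log2 ratio deposited by the authors after quantile normalization. How bins were combined into a domain value is not given in the sources used here. Values were used for their sign and, at gene starts and ends, their size. The number of value columns left unused was 0, and the remaining libraries were not analysed here.

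Genes were those of GENCODE vM21 on GRCm38; the RT list ended at the chromosome end on 18 of 19 chromosomes. Overlaps were computed with Python 3.11.15 and numpy 2.4.6, matched bedtools 2.31.1 with a difference of 0 bp, and were tested on simulated data. The start is the 5′ end of the record, and a switch is a change of kind between consecutive domains. Named genes were the 10 longest, the 10 longest with opposite kinds at start and end in each list, the 6 longest tight and early and the 6 longest of opposite kinds, the 3 longest of each function list, and the 3 on each side of the size limit; the rule for sequences named Lrmda, and Rabgap1l, Immp2l, Gm42416, Gm37388, Robo2 and Cadm2 were named after their values were seen. Of the genes that the rule names, 2 are not reported here. The 9 function lists were written from general knowledge. Members and lists were chosen with earlier results of these data known. Alternatives were size, annotation, domain length, gaps, ends and chromosomes.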

Additional observations from a re-analysis of the deposited data

How the results depend on the processing

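The 15 shares were recomputed under those of 14 alternatives that bear on each and without each of the 19 chromosomes, which gave 468 values. Of these, 451 stayed inside the 95% binomial interval of the reported share over genes and 17 did not. Leaving out a chromosome removes few of the genes, so the many values of this kind could hardly leave the interval. The LoNRD share of the body, for example, ranged from 64.4% to 68.5% without a chromosome. With genes of at least 400 kb that share was 61.6%, and with at least 1000 kb 74.0%. The count of 451 is therefore no measure of how stable the shares are. The interval treats genes as independent, which they are not. It was also built over genes for the shares of summed body length, which are not counts of genes, so it does not describe their spread. With genes of at least 1000 kb the body was 74.0% in LoNRDs and 25.4% in TiNRDs, corresponding kinds made up 85.8%, starts in TiNRDs were 27.5% and ends 35.3%, and starts in early domains 17.6%. At least 50% of the body was then in LoNRDs for 80.4% and in late domains for 94.1% of genes. With at least 800 kb these 2 shares were 75.9% and 93.1%, with starts in TiNRDs at 29.9% and in early domains at 20.7%, and with at least 400 kb they were 60.4% and 78.2%. Without switches within 100 kb of either gene end, 22.4% of genes held an NRD switch and 30.2% an RT switch, and with domains of at least 500 kb 31.7% held an RT switch. The share of loose starts among genes with opposite wrapping kinds stayed between 63.0% and 74%, and that of late starts between 59.3% and 71.4%; these 2 shares, the limit to RefSeq records of at least 500 kb and the count of overlapping genes once by chromosome were added after seeing the data. Start and end were compared within each gene, but no analysis paired by replicate was made, since the 2 domain lists used hold no values per replicate. Values of single replicates were not analysed here. The lists hold no read numbers per domain, the grids of 100 kb and 50 kb limit the place of a switch, and gene records differ between annotations.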
